A study of Homo sapiens with 30 samples.

Results

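Genes of natural killer (NK) cells and cytotoxic T cells, 10 in all, were followed through LOUCY, an established human cell line of an immature T cell leukemia, ETP-ALL, in which the transcription factor MEF2C or an active form of NOTCH1 was switched on. They are, out of 19775 genes read on the array, GZMA, GZMB, PRF1, GNLY and NKG7, which encode proteins of the cytotoxic granule, CD244, NCR3, KLRB1 and NCAM1, which encode surface receptors, and XCL1, which encodes a chemokine. The genes were taken by symbol from the annotation of the HG U133 Plus 2.0 array, on which 23 probe sets read them. Where a gene had several probe sets, the brightest over all 30 arrays stands for it and the others served as a check. The values are log2 levels from robust multichip averaging (RMA), so a difference of 1 is a doubling, and levels of different probe sets cannot be set against each other.

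All cells carried a doxycycline (dox) inducible construct, and there were 3 arrays for each of 10 groups. LOUCY_MEF2C-BFP cells, a bulk and not a clonal line made by lentiviral transduction and flow sorting, were grown in medium and on OP9-GFP or OP9-DL1, each without and with dox. OP9-GFP and OP9-DL1 are mouse bone marrow stromal lines, and OP9-DL1 also displays the Notch ligand Delta-like 1. A line with an ICN construct (intracellular NOTCH1, which acts without ligand) and a line with both constructs were grown in medium, again without and with dox. Legends of the study give 24 hours of MEF2C induction, and no duration was found for the ICN lines. No group received dox without a construct, so the dox itself and the induced protein cannot be told apart. The study's general coculture protocol adds SCF, FLT3L and IL-7. Whether these cultures received them was not found, and if they did, stroma and cytokines cannot be told apart. LOUCY also has its own MEF2C, active through a chromosomal rearrangement, and the induced MEF2C is codon optimized and lacks one activation domain.

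NK cells and cytotoxic T cells kill by releasing granules onto a target cell. Perforin, the product of PRF1, forms pores in the membrane, granzymes such as those of GZMA and GZMB are the serine proteases that enter, and granulysin, from GNLY, damages membranes. Receptors such as CD244 (2B4, which binds CD48), NCR3 (NKp30), KLRB1 (CD161) and NCAM1 (CD56) mark NK cells or tune their killing. Early thymic progenitors have not yet given up the NK fate, and Notch signaling favors the T lineage in them.

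The arrays agreed closely within groups. The lowest correlation between replicates was 0.990, in OP9-GFP without dox, and the highest was 0.998. Of 3 MEF2C probe sets, the 2 brightest fell with dox in each culture of the MEF2C line (changes of -1.19 to -0.98 on the log2 scale). The third rose there, by 0.53 in medium (adjusted p = 0.0252), 1.23 on OP9-GFP (adjusted p = 1.57e-06) and 0.63 on OP9-DL1 (adjusted p = 0.00844), and with both constructs by 0.66 (adjusted p = 0.00171), while in the ICN line it changed by -0.48 (adjusted p = 0.0293), all by limma. Its arrays with and without dox did not overlap in any of these pairs. According to the study's legends most MEF2C probe sets lie outside the cloned sequence and read the cells' own MEF2C, and another also covers the construct. Whether the probe set that rose is the latter was not checked by sequence. Its rise in the lines labelled with a MEF2C construct, and not in the ICN line, runs as labelled. The Notch target HEY1 rose by 4.96 with dox in the ICN line and by 2.26 in the line with both constructs. CD3D, a T cell receptor complex chain, lay between 11.1 and 13.0 as a group mean. As cultures are mixtures, fewer cells of a type and less RNA per cell cannot be told apart. The labels do not say whether replicates were separate cultures, so p-values measure the spread between arrays, which may be technical.

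PRF1, NKG7 and CD244 were well above the array median (4.75 to 4.84) in every group. GZMA was above it too, with a lowest group mean of 6.12 in the MEF2C line in medium without dox. NCR3 lay above it, at 5.07 to 6.59 as group means, and NCAM1 lay near it, at 4.77 to 5.31. XCL1, GZMB, GNLY and KLRB1 had means under it over the 30 arrays. GZMA moved most, with group means that ranged over 6.31 log2 units (79.1-fold). CD244 and PRF1 followed with 2.23 and 2.17, NCR3 with 1.52, GZMB with 1.14, NKG7 with 1.07 and XCL1 with 1.00. The group means of NCAM1, KLRB1 and GNLY ranged over 0.54, 0.39 and 0.19, and none of these 3 passed a test in any of the 13 comparisons made. In each of those comparisons a gene was called when its Benjamini-Hochberg adjusted p by limma was under 0.05.

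**Figure D1:**
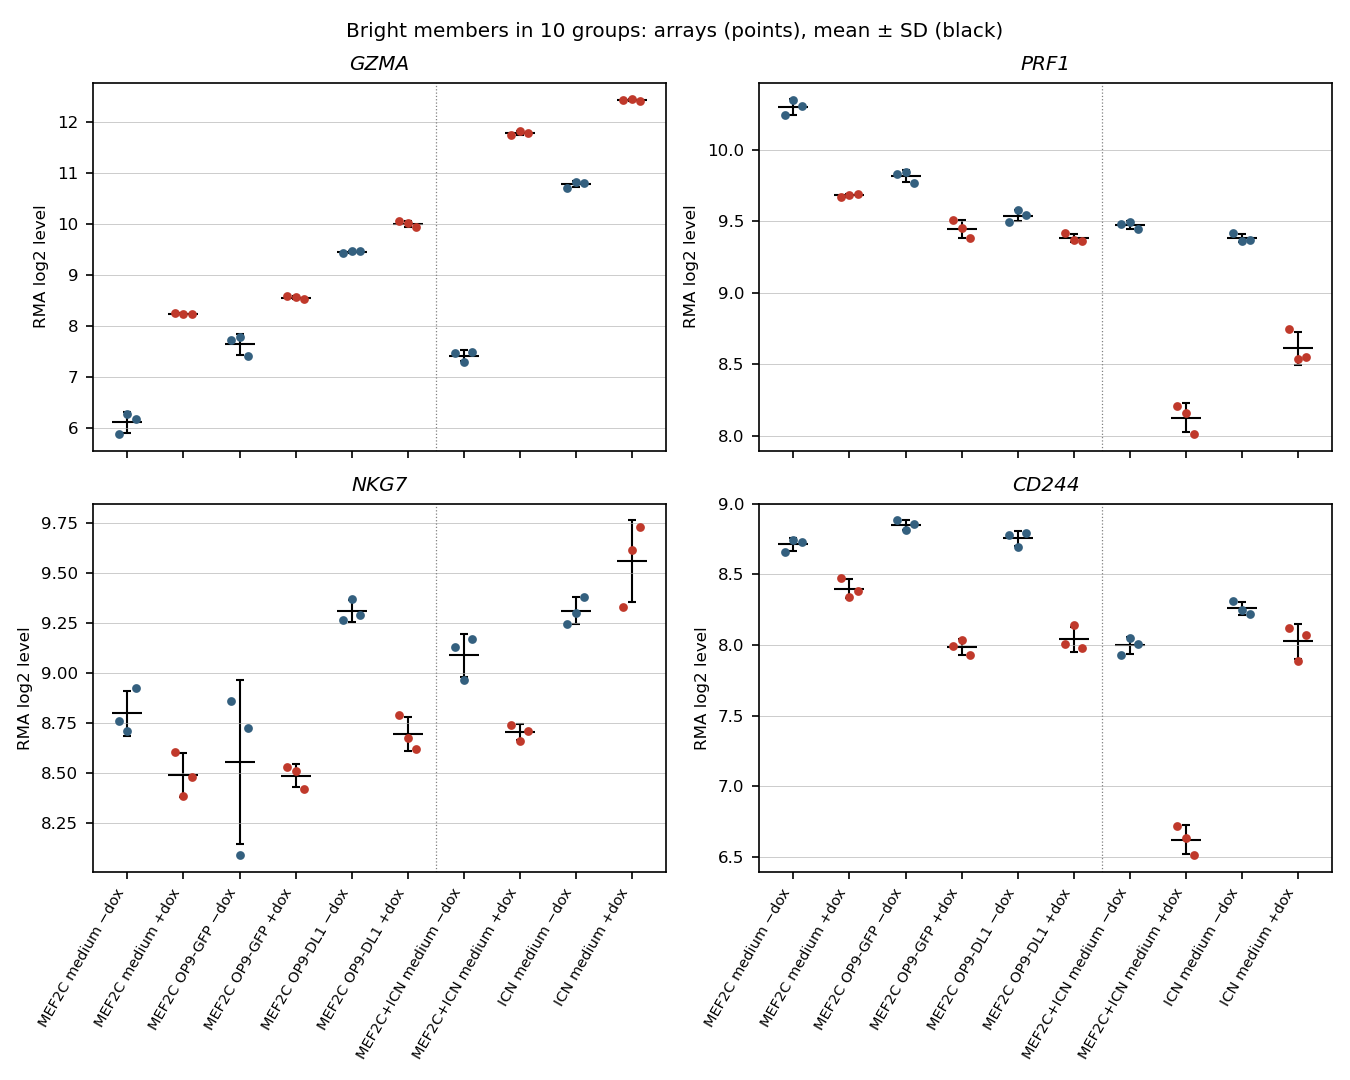
RMA log2 levels (vertical axes, a separate scale for each gene) of GZMA, PRF1, NKG7 and CD244 in the 10 groups (horizontal axis), with 3 arrays per group as points, without dox in blue and with dox in red, and the mean ± SD in black. GZMA rises with dox in all 5 pairs of groups, from 6.12 to 8.24 in the MEF2C line in medium and from 7.42 to 11.8 in the line with both constructs, while CD244 and PRF1 lie lowest, at 6.62 and 8.13, in the line with both constructs and dox.

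GZMA, which encodes granzyme A, rose with dox in every line and culture, and it was also higher on stroma and higher again on OP9-DL1. In medium its 3 arrays read 5.89, 6.28 and 6.18 without dox and 8.25, 8.23 and 8.24 with MEF2C induced. The groups stood apart, and the difference was 2.12 ± 0.09 (SE, adjusted p = 3.37e-15 by limma), or 4.36-fold. On OP9-GFP the arrays read 7.73, 7.79 and 7.41 without dox and 8.58, 8.56 and 8.53 with it. The rise there was 0.91 ± 0.09 (adjusted p = 4.47e-08 by limma), again with no overlap. On OP9-DL1 the arrays read 9.42, 9.46 and 9.46 without dox and 10.1, 10.01 and 9.93 with it, a rise of 0.55 ± 0.09 (adjusted p = 0.000119 by limma). The rise with MEF2C was smaller on OP9-GFP than in medium by 1.21 ± 0.12 (adjusted p = 4.11e-06 by limma), a comparison added after the values were seen. Between OP9-DL1 and OP9-GFP the rises differed by -0.36 (95% interval -0.61 to -0.11, adjusted p = 0.374 by limma), which did not pass. All 9 arrays with dox were above the mean of their own culture without it.

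GZMA was also higher where Notch was engaged. Without dox, GZMA was 1.80 ± 0.09 higher on OP9-DL1 than on OP9-GFP (adjusted p = 6.2e-13 by limma), and with dox 1.44 ± 0.09 higher (adjusted p = 3.59e-11 by limma). OP9-GFP itself was 1.53 ± 0.09 above medium without dox (adjusted p = 3.49e-12 by limma). In the ICN line the arrays read 10.7, 10.8 and 10.8 without dox and 12.4, 12.4 and 12.4 with it, a rise of 1.65 ± 0.09 (adjusted p = 2.15e-13 by limma). In the line with both constructs they went from 7.48, 7.30 and 7.48 to 11.7, 11.8 and 11.8, a rise of 4.36 ± 0.09 (adjusted p = 4.7e-22 by limma), or 20.5-fold. The rise in this line exceeded that in the ICN line by 2.71 ± 0.12 (adjusted p = 2.24e-14 by limma), although the level it reached, 11.8 ± 0.04 (SD, n = 3), stayed under the 12.4 ± 0.02 of the ICN line with dox. The 2 lines started from unequal levels, and in this comparison line and construct cannot be told apart.

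The uninduced lines were not alike. GZMA was 4.66 ± 0.09 higher in the ICN line without dox than in the MEF2C line without dox, both in medium (adjusted p = 1.17e-22 by limma), or 25.3-fold. Notch targets were higher there as well. Of 14 listed targets 6 passed as higher and 0 as lower (12.9% and 12.3% of all genes), and the mean over the list was 6.05 to 6.14 on the 3 arrays against 5.28 to 5.44. Leaky expression and other differences between the lines were not tested. In order of GZMA, the 10 groups ran from the MEF2C line in medium without dox, through the line with both constructs and OP9-GFP, both without dox, then MEF2C in medium and on OP9-GFP with dox, OP9-DL1 without and with dox, ICN without dox and both constructs with dox, to ICN with dox. Of the 9 pairs of neighbours in this order, only the line with both constructs and OP9-GFP, both without dox, had overlapping arrays.

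PRF1, which encodes perforin, moved against GZMA. In medium its arrays read 10.2, 10.3 and 10.3 without dox and 9.67, 9.68 and 9.69 with MEF2C induced, a fall of 0.62 ± 0.06 on the log2 scale (adjusted p = 8.47e-08 by limma). On OP9-GFP they read 9.83, 9.85 and 9.77 without dox and 9.51, 9.45 and 9.38 with it (-0.37 ± 0.06, adjusted p = 0.000226 by limma). On OP9-DL1 they read 9.50, 9.58 and 9.54 without dox and 9.42, 9.37 and 9.36 with it, which did not overlap but did not pass (-0.15 ± 0.06, adjusted p = 0.225 by limma). Thus the groups stood apart in all 3 cultures, and all 9 arrays with dox were under the mean of their culture. PRF1 fell from 9.42, 9.37 and 9.37 to 8.75, 8.54 and 8.55 with ICN (-0.77 ± 0.06, adjusted p = 6.19e-10 by limma). With both constructs it fell from 9.48, 9.49 and 9.44 to 8.21, 8.16 and 8.01 (-1.35 ± 0.06, adjusted p = 4.91e-15 by limma). The fall in the line with both constructs was deeper than in the ICN line by 0.57 ± 0.09 (adjusted p = 4.59e-05 by limma), where line and construct cannot be told apart.

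PRF1 was also lower on OP9-GFP than in medium without dox (-0.48 ± 0.06, adjusted p = 2.45e-06 by limma) and lower in the uninduced ICN line than in the uninduced MEF2C line (-0.91 ± 0.06, adjusted p = 2.95e-11 by limma). On OP9-DL1 without dox it was lower than on OP9-GFP (-0.28 ± 0.06, adjusted p = 0.0168 by limma). That last call was lost in 3 of the fits that left out 1 array, with adjusted p = 0.0661 without OP9-GFP replicate 2, 0.104 without OP9-DL1 replicate 1 and 0.0591 without OP9-DL1 replicate 3. The second PRF1 probe set fell in medium (-0.57, adjusted p = 0.000343), with ICN (-0.90, adjusted p = 2.18e-07) and with both constructs (-1.20, adjusted p = 6.62e-10), and did not pass on OP9-GFP (-0.09, adjusted p = 0.711) or between OP9-DL1 and OP9-GFP (-0.01, adjusted p = 0.986).

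**Figure D2:**
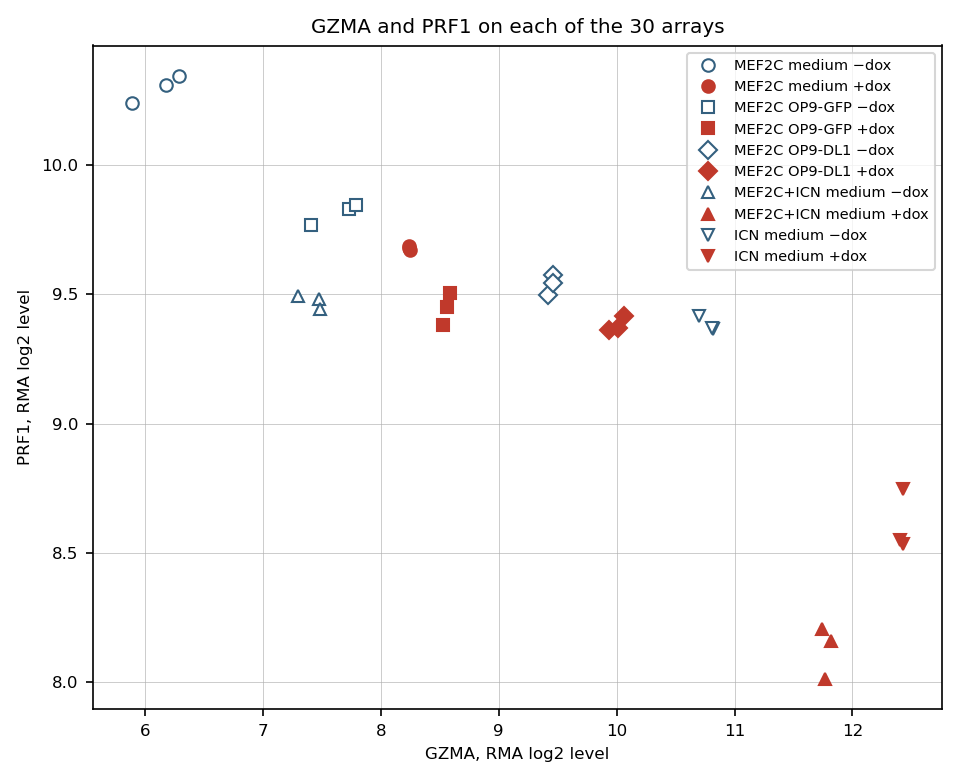
GZMA (horizontal axis) and PRF1 (vertical axis) RMA log2 levels on each of the 30 arrays, with open symbols without dox and filled symbols with dox, and 1 symbol shape per line and culture. The MEF2C line in medium without dox lies at the upper left (group means 6.12 and 10.3), and the induced lines with both constructs (11.8 and 8.13) and with ICN (12.4 and 8.61) lie at the lower right.

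Over the 10 group means GZMA and PRF1 had a Pearson correlation of -0.876 and a Spearman correlation of -0.891. The groups share lines and controls, and the values are given as a description. Their upstream sequences are printed because the 2 genes encode proteins of the same granule and moved in opposite directions. RefSeq promoters were matched for 7 of the 10 genes (CD244, GZMA, GZMB, PRF1, GNLY, NKG7 and KLRB1), and the 250 bases before the start site were searched on both strands for a T-box motif (GGTGTGA), a RUNX motif (TGTGGT), an RBPJ motif (GTGGGAA) and the MEF2 consensus. GZMA and PRF1 each held a single RUNX match (in capitals, here on the opposite strand, starting 54 and 62 bases before the start site) and none of the other motifs. GZMB held 2 RUNX matches and GNLY 1, so that 4 of the 7 genes held the motif. RUNX was present in 10.98% of 35116 promoters, the T-box motif in 2.76%, RBPJ in 5.43% and MEF2 in 0.515%. A match of such short letters is a description and not a binding site. The GZMA sequence lies at chr5:55102396-55102645 on the plus strand and that of PRF1 at chr10:70602742-70602991 on the minus strand of GRCh38.p14, both outside the transcript, and both are written 5′ to 3′ along the gene.
GZMA: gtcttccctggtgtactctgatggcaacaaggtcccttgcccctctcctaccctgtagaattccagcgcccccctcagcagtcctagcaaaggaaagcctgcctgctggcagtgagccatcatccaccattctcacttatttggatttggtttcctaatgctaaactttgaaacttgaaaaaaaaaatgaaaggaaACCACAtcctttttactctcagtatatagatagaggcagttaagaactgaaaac
PRF1: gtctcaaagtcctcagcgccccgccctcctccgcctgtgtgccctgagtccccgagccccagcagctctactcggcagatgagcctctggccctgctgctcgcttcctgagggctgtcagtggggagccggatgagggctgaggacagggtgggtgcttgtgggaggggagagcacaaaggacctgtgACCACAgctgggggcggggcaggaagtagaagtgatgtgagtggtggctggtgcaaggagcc

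GZMB, which encodes granzyme B, was dim and rose in 1 comparison only, ICN induction. Its arrays in the ICN line read 3.59, 3.46 and 3.63 without dox and 4.07, 4.65 and 4.45 with it. The groups stood apart, with a rise of 0.83 ± 0.14 (adjusted p = 0.000113 by limma), while the other 9 group means lay between 3.24 and 3.58. With both constructs the change was 0.22 (95% interval -0.07 to 0.51, adjusted p = 0.372 by limma). The difference between these inductions was -0.61 ± 0.20 and did not pass (adjusted p = 0.0599 by limma), though it did without replicate 1 of ICN with dox (adjusted p = 0.0109) or replicate 3 of both constructs with dox (adjusted p = 0.0493). It also passed after quantile normalization (adjusted p = 0.0177) and median centring (adjusted p = 0.0365). It passed in the fit of averaged probe sets as well (adjusted p = 0.0418). GZMB has 1 probe set, so averaging left its values unchanged and is no check by other probe sets. GZMH, a close relative of GZMB, was likewise dim and rose with ICN by 0.86 ± 0.19 (adjusted p = 0.00201 by limma) to 4.57 ± 0.33 (SD, n = 3), and signal that probes for related granzymes share cannot be told apart. GZMK, another relative, lay between 3.43 and 3.75 as group means and changed by 0.29 with ICN (adjusted p = 0.216 by limma). GNLY lay between 4.10 and 4.29 in all 10 groups, and neighbouring groups overlapped throughout its order.

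NKG7, which encodes a membrane protein of cytotoxic granules, was highest in the ICN line and on OP9-DL1 without dox. Without dox its arrays read 9.26, 9.37 and 9.29 on OP9-DL1 and 8.86, 8.09 and 8.72 on OP9-GFP, where replicate 2 lay apart from the other two. The difference was 0.75 ± 0.13 (adjusted p = 0.00114 by limma), but in a fit of these 2 groups alone it did not pass (adjusted p = 0.311), and PRF1 did not pass there either (adjusted p = 0.492). With MEF2C induced on OP9-DL1, NKG7 read 8.79, 8.67 and 8.62. This fall of 0.61 ± 0.13 passed (adjusted p = 0.00326 by limma) and left NKG7 0.21 above OP9-GFP with dox (95% interval -0.06 to 0.47, adjusted p = 0.686 by limma). MEF2C induction changed NKG7 by -0.31 in medium (adjusted p = 0.19 by limma) and by -0.07 on OP9-GFP (adjusted p = 0.839 by limma). OP9-GFP against medium without dox gave -0.24 (adjusted p = 0.231 by limma), which passed without OP9-GFP replicate 1 (-0.39, adjusted p = 0.0383). The falls on OP9-DL1 and OP9-GFP differed by -0.54 ± 0.18, which did not pass (adjusted p = 0.351 by limma).

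In the ICN line NKG7 read 9.25, 9.30 and 9.38 without dox and 9.33, 9.61 and 9.73 with it, an overlap, with a change of 0.25 (adjusted p = 0.251 by limma). It was 0.51 ± 0.13 higher in the uninduced ICN line than in the uninduced MEF2C line (adjusted p = 0.0045 by limma). With both constructs it went from 9.13, 8.96 and 9.17 to 8.74, 8.66 and 8.71, a fall of 0.38 ± 0.13 (adjusted p = 0.0478 by limma). Its change differed from that in the ICN line by -0.63 ± 0.18 (adjusted p = 0.0295 by limma), where line and construct cannot be told apart. Both calls are near the threshold. The fall did not pass without replicate 1 or 3 of the line with both constructs and no dox, nor without any 1 replicate of that line with dox (adjusted p = 0.0777 to 0.165). The difference did not pass when any 1 of 8 arrays was left out, namely replicates 1 and 3 without dox and 2 and 3 with dox of the line with both constructs, and replicates 1 and 2 without dox and 2 and 3 with dox of the ICN line (adjusted p = 0.0544 to 0.0925).

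**Figure D3:**
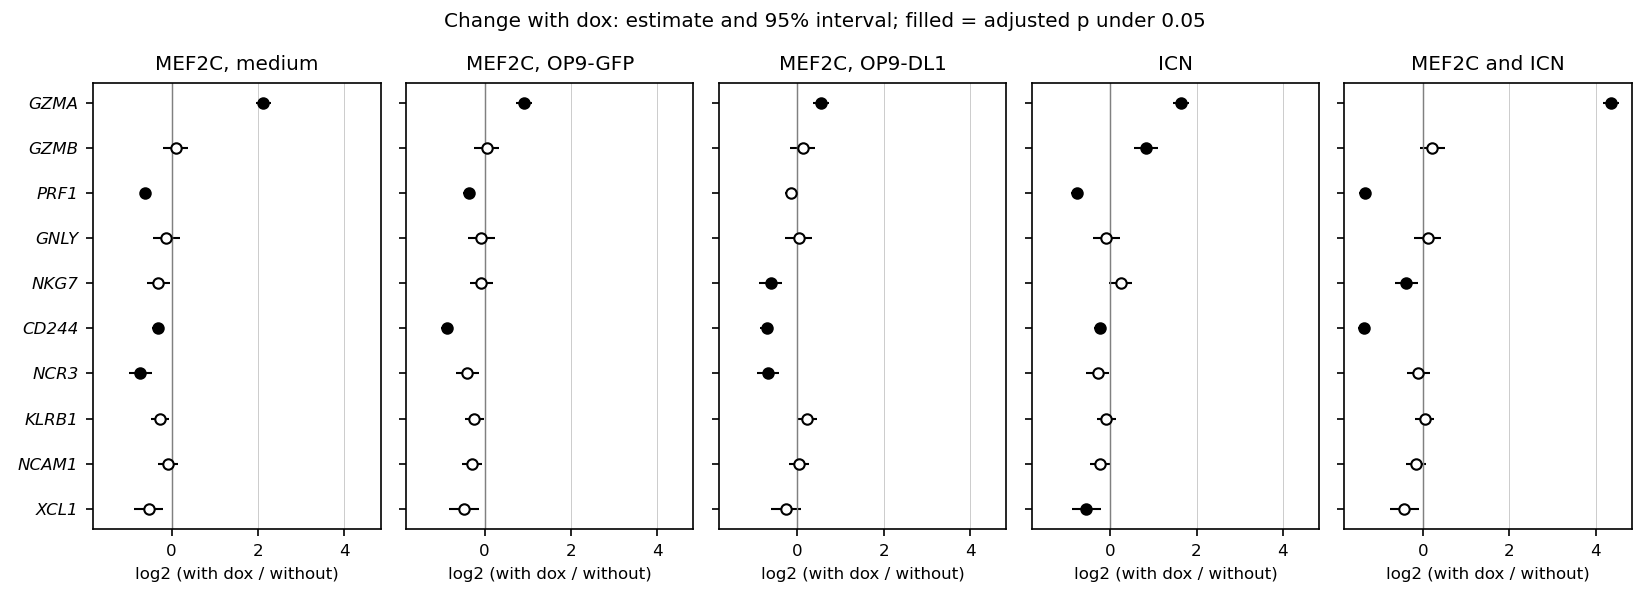
Log2 change with dox (horizontal axis) for each of the 10 genes (vertical axis) in the MEF2C line (medium, OP9-GFP and OP9-DL1), in the ICN line and in the line with both constructs, as limma estimates with 95% intervals, filled where the adjusted p was under 0.05. GZMA is the only gene to the right of 0 and filled in all 5 panels, from 0.55 on OP9-DL1 to 4.36 with both constructs, and CD244 is filled and to the left of 0 in all 5.

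CD244, a receptor of the SLAM family, fell with dox in every line and culture. In medium it went from 8.66, 8.75 and 8.73 to 8.47, 8.34 and 8.38 (-0.31 ± 0.07, adjusted p = 0.00413 by limma). On OP9-GFP it went from 8.88, 8.82 and 8.85 to 7.99, 8.04 and 7.93 (-0.86 ± 0.07, adjusted p = 1.79e-09 by limma), and on OP9-DL1 from 8.78, 8.69 and 8.79 to 8.003, 8.14 and 7.98 (-0.71 ± 0.07, adjusted p = 5.94e-08 by limma). The groups were apart in each culture. The fall was deeper on OP9-GFP than in medium by 0.55 ± 0.10 (adjusted p = 0.00544 by limma, in the comparison added later), which did not pass in a fit of those 4 groups alone (adjusted p = 0.105). Between OP9-DL1 and OP9-GFP the falls differed by 0.15 (95% interval -0.05 to 0.35, adjusted p = 0.751 by limma). In medium and ICN the second CD244 probe set, dim at a mean of 3.11, changed by 0.30 (adjusted p = 0.476) and 0.01 (adjusted p = 0.982). When the probe sets of the gene were averaged, the falls in medium (adjusted p = 0.984) and with ICN (adjusted p = 0.516) did not pass.

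With both constructs CD244 read 7.93, 8.05 and 8.01 without dox and 6.72, 6.63 and 6.51 with it, a change of -1.38 ± 0.07 on the log2 scale (adjusted p = 2.76e-14 by limma). This group was the lowest and stood apart from the next in the order, OP9-GFP with dox at 7.99 ± 0.05 (SD, n = 3). With ICN alone it went from 8.31, 8.25 and 8.22 to 8.12, 7.89 and 8.07, a fall of 0.23 ± 0.07 (adjusted p = 0.0245 by limma). That call was lost without replicate 1 or 2 of ICN without dox (adjusted p = 0.104 and 0.0565) and without replicate 2 of ICN with dox (adjusted p = 0.169). The fall in the line with both constructs was deeper than in the ICN line by 1.14 ± 0.10 (adjusted p = 3.36e-09 by limma), where line and construct cannot be told apart. Its ligand CD48 rose with ICN by 0.43 ± 0.06 (adjusted p = 4.96e-06) and with both constructs by 0.28 ± 0.06 (adjusted p = 0.000928), both by limma. With MEF2C alone CD48 rose in medium by 0.28 ± 0.06 (adjusted p = 0.0025) and on OP9-GFP by 0.45 ± 0.06 (adjusted p = 5.14e-06), and on OP9-DL1 it changed by -0.19 (adjusted p = 0.0724), all by limma. Over the 3 cultures its change was 0.18 (adjusted p = 0.43 by limma). Without dox CD48 was 0.72 ± 0.06 higher on OP9-DL1 than on OP9-GFP (adjusted p = 1.09e-08 by limma), where CD244 did not pass.

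The 250 bases before the CD244 start site are shown because they held the single RBPJ match among the 7 genes, a motif found in 5.43% of promoters, starting 12 bases before the start site. Between OP9-DL1 and OP9-GFP without dox CD244 differed by -0.10 (95% interval -0.24 to 0.05, adjusted p = 0.645 by limma), which did not pass. The sequence lies at chr1:160862888-160863137 on the minus strand of GRCh38.p14, with the match in capitals.
CD244: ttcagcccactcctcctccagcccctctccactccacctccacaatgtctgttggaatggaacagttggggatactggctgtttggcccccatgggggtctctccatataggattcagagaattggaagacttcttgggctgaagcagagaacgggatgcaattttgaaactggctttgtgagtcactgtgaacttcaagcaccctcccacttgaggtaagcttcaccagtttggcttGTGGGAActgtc

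NCR3, the activating receptor NKp30, fell when MEF2C was induced. In medium it went from 6.67, 6.72 and 6.37 to 5.97, 5.77 and 5.85 (-0.72 ± 0.13, adjusted p = 0.000391 by limma), and on OP9-DL1 from 6.39, 6.44 and 6.32 to 5.66, 5.71 and 5.73 (-0.68 ± 0.13, adjusted p = 0.000948 by limma). On OP9-GFP it went from 6.03, 6.17 and 6.08 to 5.71, 5.62 and 5.76, which did not overlap and did not pass (-0.40 ± 0.13, adjusted p = 0.0663 by limma). There the other 2 probe sets of NCR3 fell by 0.71 (adjusted p = 0.00237) and 0.75 (adjusted p = 0.00154), so the call depended on the probe set. Its probe sets include ones that may cross-hybridize. The gene was 0.49 ± 0.13 lower on OP9-GFP than in medium without dox (adjusted p = 0.00638 by limma). All 4 groups of the ICN lines lay under the 6 groups of the MEF2C line, at 5.07 to 5.36 against 5.70 to 6.59. The uninduced ICN line differed from the uninduced MEF2C line by -1.23 ± 0.13 (adjusted p = 6.35e-08 by limma). From there ICN changed NCR3 by -0.29 (adjusted p = 0.16 by limma) and both constructs by -0.11 (adjusted p = 0.683 by limma). Without replicate 3 of ICN with dox the change with ICN passed (-0.43, adjusted p = 0.0305). The 2 other probe sets fell with ICN by 0.60 (adjusted p = 0.00607) and 0.75 (adjusted p = 0.000824). When the probe sets of NCR3 were averaged, the fall with both constructs passed (-0.29, adjusted p = 0.00806 by limma). That result thus depended on the probe sets used.

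KLRB1 and NCAM1 gave no call with all 30 arrays. KLRB1 lay between 3.49 and 3.88 and NCAM1 between 4.77 and 5.31 as group means. Every pair of neighbouring groups in the order overlapped for both genes and also for XCL1. KLRB1 changed with MEF2C by -0.27 in medium (adjusted p = 0.151 by limma), -0.24 on OP9-GFP (adjusted p = 0.219 by limma) and 0.23 on OP9-DL1 (adjusted p = 0.337 by limma). NCAM1 changed by -0.07 in medium (adjusted p = 0.82 by limma), by -0.30 on OP9-GFP (adjusted p = 0.13 by limma) and by 0.04 on OP9-DL1 (adjusted p = 0.954 by limma). Without replicate 1 of OP9-GFP without dox, NCAM1 passed as lower with MEF2C on OP9-GFP (-0.43, adjusted p = 0.0185), as lower on OP9-DL1 than on OP9-GFP (-0.45, adjusted p = 0.0356) and as higher on OP9-GFP than in medium (0.34, adjusted p = 0.0431). Without replicate 2 of that group KLRB1 passed as lower on OP9-GFP than in medium (-0.30, adjusted p = 0.0331).

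XCL1, a chemokine that attracts dendritic cells, was dim, with group means from 3.63 with ICN and dox to 4.63 in the MEF2C line in medium without dox. Over the 3 cultures it fell by 0.42 ± 0.08 on the log2 scale with MEF2C (adjusted p = 0.00316 by limma), and the 9 arrays with dox ran from 3.73 to 4.40 (median 4.18) against 4.42 to 4.85 (median 4.53) without. These 2 sets of 9 did not overlap. Within the cultures the changes were -0.53, -0.47 and -0.26, and none passed (adjusted p = 0.0554, 0.0936 and 0.574 by limma). In medium the fall passed without replicate 1 with dox (adjusted p = 0.0221). With both constructs the change was -0.43 (adjusted p = 0.087 by limma), and it passed without replicate 3 with dox (adjusted p = 0.012). With ICN it went from 4.25, 4.02 and 4.27 to 3.51, 3.54 and 3.83 (-0.55 ± 0.16, adjusted p = 0.0243 by limma). This call was lost without replicate 1 or 3 of ICN without dox (adjusted p = 0.0857 and 0.0896) and without replicate 1 or 2 of ICN with dox (adjusted p = 0.0952 and 0.0834). The probe set is one that may cross-hybridize, XCL1 and XCL2 are near-identical genes, and no probe set carried XCL2 as its only symbol, so the 2 genes cannot be told apart.

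**Figure D4:**
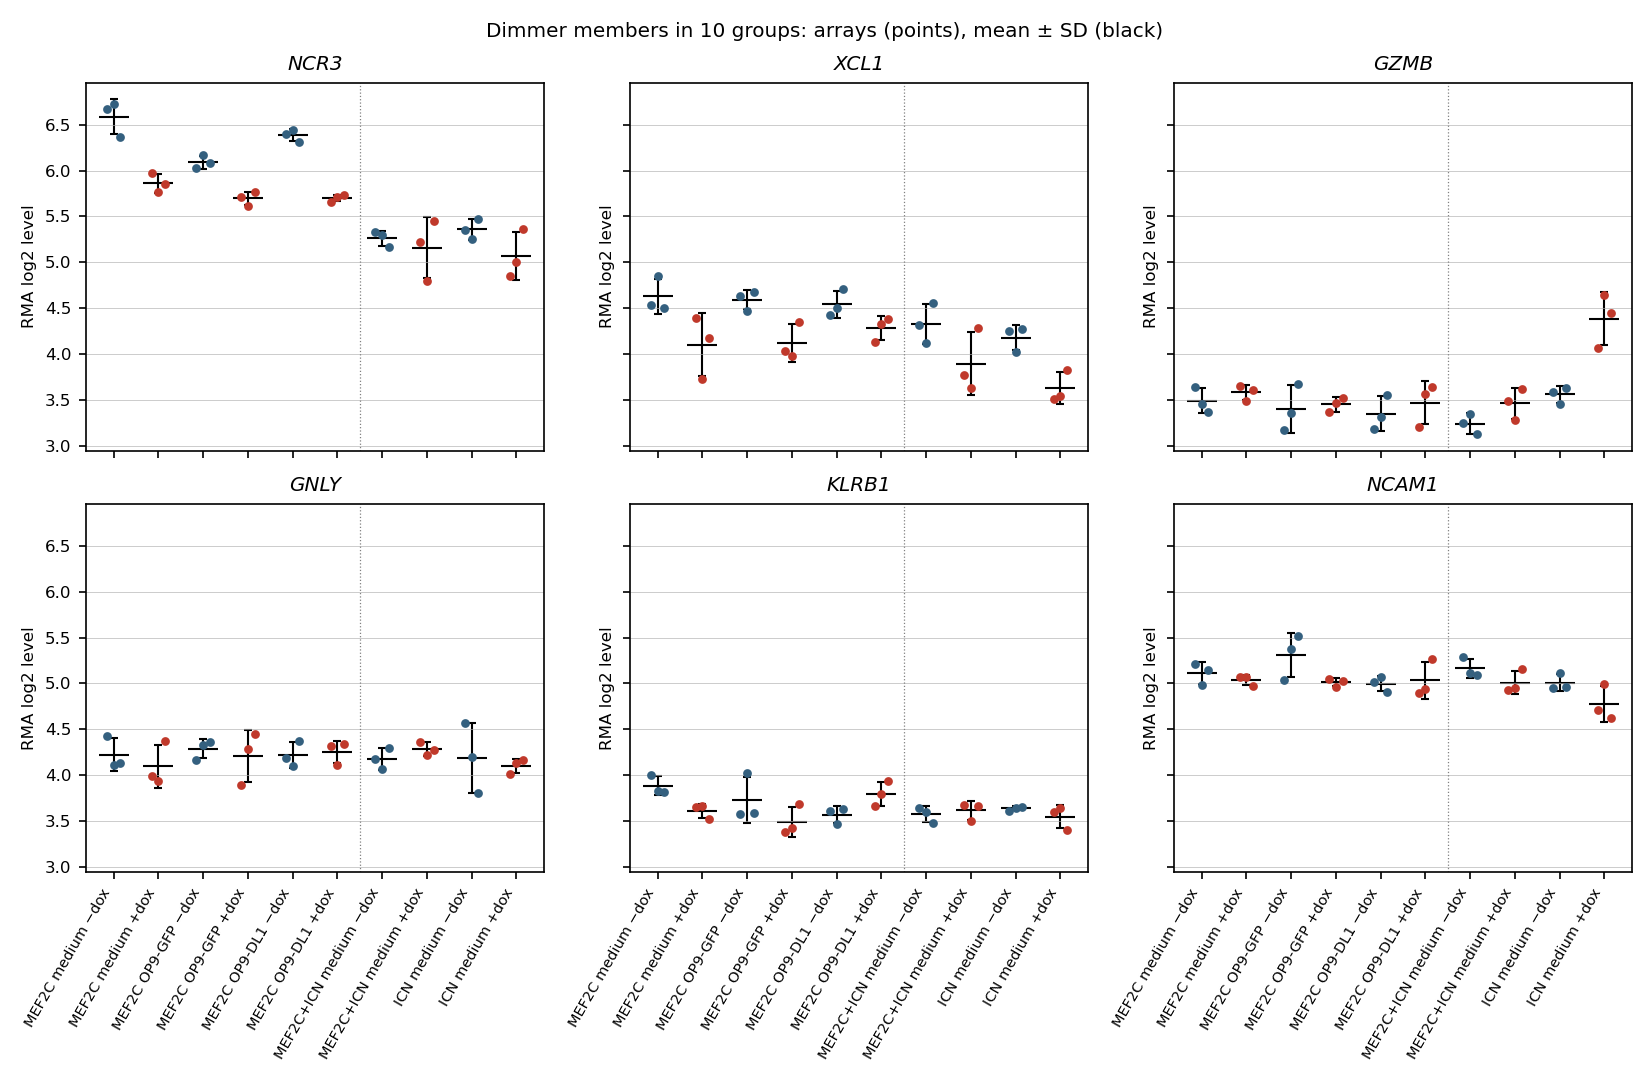
RMA log2 levels (vertical axis, 1 shared scale) of NCR3, XCL1, GZMB, GNLY, KLRB1 and NCAM1 in the 10 groups (horizontal axis), with 3 arrays per group as points, without dox in blue and with dox in red, and the mean ± SD in black. NCR3 steps down with dox in each culture of the MEF2C line and is lowest in the ICN lines (5.07 to 5.36), GZMB stands up in ICN with dox alone (4.39), and GNLY, KLRB1 and NCAM1 stay within 0.54 log2 units.

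Over the 9 arrays with dox and 9 without, the arrays that the study compared, 0 of the 10 genes rose and 3 fell (CD244, NCR3 and XCL1), where 3.40% of all 19775 genes rose and 3.79% fell. These calls rest on the adjusted p alone. The study also asked for a log2 change beyond 0.6, and by its criteria XCL1 (-0.42) did not pass. CD244 fell by 0.63 ± 0.07 (adjusted p = 5.14e-06 by limma) and NCR3 by 0.60 ± 0.08 (adjusted p = 6.68e-05 by limma). GZMA differed by 1.20 ± 0.49 and did not pass (adjusted p = 0.208 by limma). Its 9 arrays without dox ran from 5.89 to 9.46 (median 7.73), and the 9 with dox from 8.23 to 10.1 (median 8.56). With the culture as a term in the fit GZMA passed (adjusted p = 3.33e-05 by limma), and so did PRF1 (-0.38, adjusted p = 0.0521 without the term and 6.88e-05 with it) and NKG7 (-0.33, adjusted p = 0.168 and 0.0215). The median of the 10 genes was -0.22 and that of all genes -0.01. XCL1 did not pass without replicate 1 (adjusted p = 0.0525) or without OP9-GFP (adjusted p = 0.0932). GZMA passed without OP9-DL1 (1.52, adjusted p = 0.0101), and PRF1 without OP9-DL1 (adjusted p = 0.0268) or without medium (adjusted p = 0.0394).

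Within single cultures, 1 gene rose and 3 fell in medium (all genes 5.03% and 3.58%), 1 rose and 2 fell on OP9-GFP (3.03% and 4.58%), and 1 rose and 3 fell on OP9-DL1 (2.57% and 3.33%). The gene that rose was GZMA in each. Of the difference of MEF2C induction between OP9-DL1 and OP9-GFP, 0 of 10 passed in either direction (0.0556% and 0.0759% of all genes). Of the difference between OP9-GFP and medium, 0 passed upward and 2 downward (0.101% and 0.389%), namely GZMA and CD244.

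For the Notch ligand without dox 2 genes rose and 1 fell (1.02% and 0.612% of all genes), and with dox 1 rose and 0 fell (0.920% and 0.480%). On OP9-GFP against medium 1 rose and 2 fell (10.8% and 11.5%). With ICN 2 rose and 3 fell (6.44% and 9.42%), and with both constructs 1 rose and 3 fell (5.84% and 10.9%). The inductions with both constructs and with ICN alone differed upward for 1 gene and downward for 3 (4.06% and 6.08%), and the uninduced ICN line against the uninduced MEF2C line had 2 higher and 3 lower (12.9% and 12.3%). Several of these comparisons share control arrays.

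Other genes of NK cells were read through 5 lists. Of 30 measured NK receptors and adaptors, 1 rose and 4 fell over the 3 cultures with MEF2C (median -0.10), where 3.40% of all genes rose and 3.79% fell. HCST, the adaptor DAP10, fell by 1.06 ± 0.10 (adjusted p = 4.57e-07), the adaptor FCER1G by 0.91 ± 0.07 (adjusted p = 7.98e-09), the inhibitory receptor LAIR1 by 0.42 ± 0.05 (adjusted p = 6.17e-06) and KLRG1 by 0.41 ± 0.09 (adjusted p = 0.00515), while SH2D1A, the SAP adaptor of CD244, rose by 0.27 ± 0.08 (adjusted p = 0.0458), all by limma. With ICN 6 rose and 5 fell (median -0.01; all genes 6.44% and 9.42%). FYN, a kinase that binds SAP, rose by 1.11 ± 0.07 (adjusted p = 1.72e-11), SH2D1A fell by 0.61 ± 0.06 (adjusted p = 1.12e-08) and HCST fell by 1.05 ± 0.12 (adjusted p = 5.19e-07), all by limma. With both constructs 2 rose and 6 fell (median 0.00; all genes 5.84% and 10.9%). FCER1G fell by 2.15 ± 0.11 (adjusted p = 3.55e-14), HCST by 1.98 ± 0.12 (adjusted p = 2.18e-12) and the receptor CD96 by 1.43 ± 0.08 (adjusted p = 3.97e-13), all by limma. The Notch ligand without dox raised 2, CD48 and CRTAM (1.44 ± 0.20, adjusted p = 6.63e-05 by limma), and lowered 0 (all genes 1.02% and 0.612%). KLRD1, a lectin-like NK receptor, rose with ICN by 0.45 ± 0.13 (adjusted p = 0.0175 by limma) and changed by 0.00 over the 3 cultures (adjusted p = 0.997 by limma).

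Of 20 measured genes of granule contents and their release, 0 rose and 6 fell over the 3 cultures with MEF2C (median -0.03), 1 rose and 7 fell with ICN (median -0.12), and 0 rose and 9 fell with both constructs (median -0.22). In these comparisons 3.40%, 6.44% and 5.84% of all genes rose and 3.79%, 9.42% and 10.9% fell. RAB27A, which docks granules, fell by 0.74 ± 0.08 (adjusted p = 1.21e-06) over the 3 cultures, and with both constructs it fell by 1.19 ± 0.07 (adjusted p = 1.02e-12). SRGN, the proteoglycan that packs granzymes, fell by 0.55 ± 0.06 (adjusted p = 4.48e-06) and fell by 1.40 ± 0.08 (adjusted p = 8.19e-13). CTSH, a protease of lysosomes, fell by 0.58 ± 0.10 (adjusted p = 0.000686) and fell by 1.32 ± 0.07 (adjusted p = 7.86e-14), all by limma. No gene of this list passed between OP9-DL1 and OP9-GFP without dox (0 of 20), where only 1.02% of all genes rose and 0.612% fell.

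Of 8 measured cytokines, chemokines and death ligands, 0 rose and 1 fell over the 3 cultures (median -0.07), 2 rose and 0 fell with ICN (median 0.05), 0 rose and 1 fell with both constructs (median 0.02), and 0 moved with the Notch ligand. The shares of all genes that rose were 3.40%, 6.44%, 5.84% and 1.02%, and those that fell 3.79%, 9.42%, 10.9% and 0.612%. LTB, lymphotoxin beta, was the gene that fell, by 0.47 ± 0.10 (adjusted p = 0.004) and by 2.37 ± 0.08 (adjusted p = 2.71e-17), and with ICN it rose by 0.70 ± 0.08 (adjusted p = 7.16e-07), all by limma.

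Of 16 measured NK transcription factors, 3 rose and 3 fell over the 3 cultures (median -0.18), 2 rose and 5 fell with ICN (median -0.10), 2 rose and 7 fell with both constructs (median -0.12), and 1 rose and 1 fell with the Notch ligand without dox. Over all genes 3.40%, 6.44%, 5.84% and 1.02% rose and 3.79%, 9.42%, 10.9% and 0.612% fell in these 4 comparisons. NFIL3, a factor needed for NK development, rose by 0.89 ± 0.08 over the 3 cultures (adjusted p = 1.04e-07 by limma) and fell by 0.49 ± 0.07 with ICN (adjusted p = 5.67e-06 by limma). TOX fell by 0.75 ± 0.05 with ICN (adjusted p = 9.25e-11 by limma) and by 1.52 ± 0.05 with both constructs (adjusted p = 3.85e-17 by limma). BCL11B rose by 0.64 ± 0.07 with ICN (adjusted p = 4.72e-07 by limma) and by 0.92 ± 0.07 with both constructs (adjusted p = 4.24e-10 by limma). ETS1 rose by 0.29 ± 0.08 with both constructs (adjusted p = 0.014 by limma). ID2, which holds back E proteins, fell by 0.67 ± 0.07 with both constructs (adjusted p = 1.57e-08 by limma). TBX21, which encodes T-bet, was dim at 3.74 to 4.32 as group means and did not pass over the 3 cultures (-0.23, adjusted p = 0.0851 by limma), with ICN (0.24, adjusted p = 0.265 by limma) or with both constructs (-0.10, adjusted p = 0.692 by limma). EOMES, a relative of TBX21, was 6.53 ± 0.16 (SD, n = 3) in the MEF2C line in medium without dox and 7.98 ± 0.02 on OP9-GFP, and it rose with ICN by 0.25 ± 0.08 (adjusted p = 0.0378 by limma). With MEF2C it fell in medium by 0.40 ± 0.08 (adjusted p = 0.00157), on OP9-GFP by 0.62 ± 0.08 (adjusted p = 5.74e-06) and on OP9-DL1 by 0.50 ± 0.08 (adjusted p = 0.000138), while over the 3 cultures the change was -0.50 ± 0.31 (adjusted p = 0.48) and with both constructs 0.04 (adjusted p = 0.831), all by limma.

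Of 14 measured receptors for NK cytokines and their signaling genes, 1 rose and 3 fell over the 3 cultures (median -0.19), 2 rose and 6 fell with ICN (median -0.23), 1 rose and 6 fell with both constructs (median -0.16), and 2 rose and 1 fell with the Notch ligand without dox, beside the same 3.40%, 6.44%, 5.84% and 1.02% of all genes that rose and 3.79%, 9.42%, 10.9% and 0.612% that fell. IL2RB, the chain shared by the receptors for IL-2 and IL-15, fell by 0.74 ± 0.12 over the 3 cultures (adjusted p = 0.000317), by 0.52 ± 0.08 with ICN (adjusted p = 3.27e-05) and it fell by 1.27 ± 0.08 with both constructs (adjusted p = 2.35e-12), all by limma. IL18RAP, a chain of the IL-18 receptor, fell by 2.74 ± 0.06 with both constructs (adjusted p = 6.99e-22 by limma). IL7R, the IL-7 receptor chain, rose by 0.83 ± 0.22 over the 3 cultures (adjusted p = 0.0248), by 1.87 ± 0.12 with ICN (adjusted p = 7.91e-12), by 4.65 ± 0.12 with both constructs (adjusted p = 6.41e-20) and by 0.92 ± 0.12 with the Notch ligand (adjusted p = 3.06e-05), all by limma.

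IL7R was also the gene whose 10 group means followed those of GZMA most closely, with a Pearson correlation of 0.959 among 2081 other genes with a range of at least 1 log2 unit. HBEGF (0.958) and ABCA1 (0.954) came next. For CD244 the closest were YME1L1 (0.985), SRGN (0.974) and RAI14 (0.974), and for PRF1 they were C11orf21 (0.986), ATP23 (0.982) and CNIH3 (0.976). These values describe 10 groups that share lines and controls.

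Markers of other cells were read beside these results. Of 14 stromal genes, 0 rose and 0 fell between OP9-DL1 and OP9-GFP without dox, where 1.02% of all genes rose and 0.612% fell. Between OP9-GFP and medium 2 rose and 2 fell (all genes 10.8% and 11.5%). The mean over this list was 4.67 to 4.82 in medium, 4.76 to 4.87 on OP9-GFP and 4.73 to 4.76 on OP9-DL1, all without dox. Its genes were of unlike brightness, with means over the 30 arrays from 2.07 for LUM to 8.84 for SPARC. COL3A1, among the dimmer ones, lay at 2.95 to 3.26 as group means. OP9 cells are of mouse origin and how far their RNA binds these probes was not tested. Of 8 myeloid genes 0 rose and 1 fell over the 3 cultures with MEF2C, and of 6 B cell genes 0 rose and 0 fell. In that comparison 3.40% of all genes rose and 3.79% fell. Of 15 genes of the T lineage and of LOUCY identity 0 rose and 8 fell over the 3 cultures, with CD3D lower by 0.64 ± 0.08 (adjusted p = 1.08e-05 by limma). This list is not of T cell genes alone and also holds MEF2C, LMO2 and LYL1. In medium 0 rose and 5 fell, namely CD3D, CD3G, MEF2C, LMO2 and LYL1 (all genes 5.03% and 3.58%). With ICN 4 of those 15 rose and 4 fell (all genes 6.44% and 9.42%), among them CD3G, which rose by 1.25 ± 0.11 (adjusted p = 2.38e-09 by limma). Beside the same shares of all genes, 2 stromal genes rose and 2 fell with ICN, 0 myeloid genes rose and 2 fell, and 1 B cell gene rose and 1 fell. COL5A2, a collagen gene, rose by 1.41 ± 0.17 (adjusted p = 5.84e-07), while the myeloid genes that fell were ITGAM (-1.4999 ± 0.19, adjusted p = 2.83e-06) and LYZ (-0.82 ± 0.19, adjusted p = 0.0035), all by limma. With both constructs 0 stromal genes rose and 3 fell, 0 myeloid genes rose and 1 fell, 0 B cell genes rose and 1 fell, and 2 of the 15 rose and 3 fell. Of all genes 5.84% rose and 10.9% fell there. The part of these markers in the changes of the 10 genes was not tested. Of 14 Notch targets 0 moved over the 3 cultures, 3 rose with the Notch ligand without dox, 4 with ICN and 5 with both constructs, and 0 fell in those 3 comparisons. In the same order, the shares of all genes that rose were 3.40%, 1.02%, 6.44% and 5.84%, and those that fell 3.79%, 0.612%, 9.42% and 10.9%.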

How the data were processed

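RNA was hybridized to 30 HG U133 Plus 2.0 arrays, 3 for each of 10 groups, which were taken from the sample labels. The deposited values are log2 levels that the authors made by RMA, with affy 1.64.0 and R 3.6.3 according to the submitters' processing notes. RMA removes differences in overall brightness, and background shrinks the changes of dim probe sets. An array has no read depth, and its precision is limited by the number of arrays.

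Of 54675 probe sets, 62 controls were left out. In the platform annotation 41091 of the rest carry 1 symbol, 1801 several and 11721 were not listed. Symbols were checked through the gene identifier, and 0 changed. A gene was its probe set with 1 symbol and the highest mean (19775 genes). Moderated statistics came from limma 3.58.1 (R 4.3.3), with Benjamini-Hochberg adjustment over 54613 probe sets. MEF2C induction over 3 cultures used 18 arrays and no covariate, after the methods of the study, and the other comparisons used 1 model of 10 groups. Differences of inductions were contrasts in that model.

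The 10 genes and the lists were chosen with earlier results of these data known, and they give no independent support. Genes of the lists could be named where they passed in MEF2C induction over 3 cultures, ICN induction, MEF2C and ICN induction or OP9-DL1 against OP9-GFP without dox, at most 4 each way per list. XCL2, GZMH, GZMK, TBX21, EOMES, IL2RB, KLRD1 and CD48 could be named whatever their values. Not every gene that passed was named above. With ICN, NCR2 rose by 0.76 (adjusted p = 3.64e-07), CD226 by 0.56 (adjusted p = 0.00866) and TNFSF10 by 0.92 (adjusted p = 0.0119), all by limma. IL18R1 fell by 1.24 with ICN (adjusted p = 2.49e-11 by limma). The genes most like a pattern were the 3 with the highest Pearson correlation over the group means. On simulated data for MEF2C induction in medium, 98 of 100 probe sets shifted by 1 log2 unit and 99 of 100 shifted by 2 were recovered among 54613, with 7 false calls. Of 100 shifted by 1, the differences of MEF2C induction between OP9-DL1 and OP9-GFP and between OP9-GFP and medium recovered 82 each. The difference between both constructs and ICN recovered 88, and the remaining comparisons at least 96. The simulated arrays held no differences between cultures. The fit of MEF2C induction over 3 cultures has no culture term, so its simulated recovery does not carry over to the real arrays. Shifts under 1 were not simulated. Alternatives were a filter on means under 5, quantile normalization, median centring, a trended and robust prior, the replicate number as a block, averaged probe sets, the criteria of the study, fits of the groups alone, the culture as a term, and leaving out arrays, replicate numbers or cultures. The criteria of the study were a log2 change beyond 0.6 in either direction, p under 0.05 and q under 0.1. Of the listed genes, 13 had no probe set with 1 symbol in the annotation and were not analysed here.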

Additional observations from a re-analysis of the deposited data

Results flagged for a closer look

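Inductions that differed between groups by a test of the difference itself are gathered here, with the values above. Induction in the line with both constructs differed from that in the ICN line for GZMA by 2.71, for CD244 by -1.14, for NKG7 by -0.63 and for PRF1 by -0.57 on the log2 scale. Line and construct cannot be told apart in these differences. The Notch target HEY1 also rose unequally, by 4.96 in the ICN line and by 2.26 in the line with both constructs. MEF2C induction on OP9-GFP differed from that in medium for GZMA by -1.21 and for CD244 by -0.55.

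Among the 9 arrays of the MEF2C line with dox, the highest NCAM1 level, 5.27 on OP9-DL1 replicate 3, stood apart from the other 8. It was the 1 such array among 20 sets of 9, where chance gives about 1 in 20.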

How the results depend on the processing

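Of 1958 values of the 10 genes under the alternatives, 1866 kept their direction and their side of the threshold or had no call to lose, 51 lost a call, 41 gained one and 0 called values changed sign. For MEF2C induction over 3 cultures, 3 genes passed as fitted, 6 with the culture as a term, 6 as the mean of the inductions in the model of 10 groups, 5 without OP9-DL1, and 2 to 3 when a replicate number was left out. The count over all 19775 genes rose as well, from 1423 to 2915 with the culture as a term and 3362 as the mean of the inductions, but was 753 without OP9-DL1. For ICN, 5 passed as fitted, 3 with probe sets of a mean of at least 5, 3 by the criteria of the study, and 3 to 6 when 1 array was left out. The filter on means took out GZMB and XCL1, both called as fitted, before testing, so that lower count is not a loss of calls. On OP9-GFP against medium without dox, 3 passed as fitted, 1 by the criteria of the study, and 3 to 5 when 1 array was left out (5 without OP9-GFP replicate 1). For the uninduced lines 5 became 3 by the criteria of the study. For OP9-DL1 against OP9-GFP without dox 3 became 1 in a fit of the groups alone. For the difference of MEF2C induction between OP9-GFP and medium 2 became 1 both by the criteria of the study and in a fit of the groups alone. Fits of the groups alone also ended the calls of CD244 in medium (adjusted p = 0.0979) and with ICN (0.192) and of PRF1 on OP9-GFP (0.0806). Median centring ended those of CD244 with ICN (0.0573) and of PRF1 for OP9-DL1 against OP9-GFP (0.0567), and quantile normalization that of NKG7 with both constructs (0.0868), all by limma.

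Counts over all genes moved by more than 1.5 times. By the criteria of the study they fell from 1423 to 284 over the 3 cultures, from 1701 to 368 in medium, from 1505 to 367 on OP9-GFP, from 1166 to 341 on OP9-DL1, from 3135 to 790 with ICN, from 3319 to 1061 with both constructs, from 2004 to 1002 for the difference of the last 2, from 4396 to 730 for OP9-GFP against medium, from 4978 to 1036 for the lines and from 277 to 90 for OP9-DL1 against OP9-GFP with dox. In fits of the groups alone, 322 became 44 for OP9-DL1 against OP9-GFP without dox, 26 became 3 for the difference between OP9-DL1 and OP9-GFP, and 97 became 23 for that between OP9-GFP and medium. With a trended and robust prior those last 2 were 68 and 159. Alone, 1701 became 794 in medium, 1505 became 438 on OP9-GFP, 277 became 141 for OP9-DL1 against OP9-GFP with dox, 4396 became 1375 for OP9-GFP against medium, 3135 became 1656 with ICN and 4978 became 3271 for the lines. By the criteria of the study 322 became 119. The difference between OP9-DL1 and OP9-GFP had 55 with means of at least 5, 43 after quantile normalization, 17 without OP9-GFP replicate 1 with dox and 16 without OP9-DL1 replicate 1 without dox. Over the 3 cultures 1423 became 563, 710 and 662 without replicates 1, 2 and 3, and 679 without OP9-GFP. For OP9-DL1 against OP9-GFP without dox 322 became 205 without OP9-DL1 replicate 1, and with dox 277 became 163 and 182 without OP9-GFP replicates 2 and 3, and 180 and 169 without OP9-DL1 replicates 1 and 2. The causes were not tested.

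Replicate numbers did not pair the arrays (median correlation of deviations 0.00544 for the same number and -0.00792 for other numbers). With the replicate number as a block XCL1 passed in medium (adjusted p = 0.0196), on OP9-GFP (0.0401), with both constructs (0.0373) and between the uninduced lines (0.0217), and GZMB passed for the difference between both constructs and ICN (0.0464), all by limma. The block changed no other call of the 10 genes. Signal near background limits GZMB, GNLY, KLRB1 and XCL1.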
